A study of Rattus norvegicus with 12 samples.

Results

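The antioxidant programme that is governed by the transcription factor NRF2 was followed in primary cortical neuroglial cultures, together with glutathione synthesis and the enzymes that remove peroxides and superoxide. Its members were taken by gene name from a list of 36 genes of known function, which was chosen with earlier results of these data known. A row of that name was found for 35 of the 36, among 28111 names, and Pgd was not analysed here. The cultures came from the cortex of Wistar rat pups, P0 by the labels and P1–P2 by the article, and received cytosine arabinoside according to the article. RNA was taken at 10 days in vitro, 4 h after treatment. The intact control (IC) received no addition, and the other groups received 10 µg/mL extracellular vesicles (EV), 15 µg/mL of a 3–100 kDa protein fraction or 45 µg/mL of the total secretome. All 3 preparations were secreted factors of glial progenitor cells grown from human induced pluripotent stem cells, so human material was given to rat cells. Each of the 4 groups had 3 libraries, and p-values measure the spread between these libraries. The article states for its experiments in general that the cultures came from unrelated cells, but neither it nor the labels tie a library to a culture, so this spread may be technical. The doses differed, so agent and dose cannot be told apart between treatments.

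In resting cells NRF2, encoded by Nfe2l2, is bound by the cysteine-rich sensor KEAP1 and handed to the proteasome. Electrophiles and oxidants modify KEAP1, NRF2 then accumulates, pairs with a small MAF protein and binds antioxidant response elements in front of genes for heme breakdown, glutathione synthesis, thioredoxin reduction and NADPH supply. In brain tissue this programme is known to be stronger in astrocytes than in neurons, and astrocytes supply neurons with glutathione precursors.

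The members were scanned for the core of the antioxidant response element, TGACNNNGC (N is any base), on both strands of RefSeq promoter windows of the GRCr8 build. These windows run from 250 bases before to 50 bases after the start of a gene. A window was matched by symbol for 29 of the 35 members, and Hmox1, Gsr, Prdx6, Sod3, Fth1 and Ftl1 had no entry. The core was present in 9 of the 29 members (31%) and in 13.1% of 27457 genes with a window. The AP-1 site TGACTCA, which shares letters with the core, was present in 4 of the 29 (13.8%) and in 5.04% of all genes with a window. Of the 9 core matches, 3 also held TGACTCA. The windows of Srxn1, Txnrd1 and Nfe2l2 are shown because these members had the lowest p after EV among those with a window. Those of Me1 and Gclm were added after their values had been seen, because Me1 passed between treatments and Gclm encodes the partner subunit of Gclc, whose window held no core match. Capitals mark the core, or in Srxn1, which held no core, the AP-1 letters, and each sequence is written in the direction of its gene.
Srxn1, chr3:161064734-161064813, plus strand: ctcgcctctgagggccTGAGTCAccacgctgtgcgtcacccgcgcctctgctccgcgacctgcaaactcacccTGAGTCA
Txnrd1, chr7:22755958-22755998, minus strand: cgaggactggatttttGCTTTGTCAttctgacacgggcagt
Nfe2l2, chr3:81028950-81028977, minus strand: tgctccgactagccatTGACGCCGCctc
Me1, chr8:96540387-96540427, minus strand: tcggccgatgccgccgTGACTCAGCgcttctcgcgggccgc
Gclm, chr2:213031947-213031987, plus strand: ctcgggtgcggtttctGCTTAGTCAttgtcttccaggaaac

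The core began 78 bases before the start in 1 of the 2 windows listed for Txnrd1, the other holding none, 167 bases before it in Me1 and 172 bases before it in Gclm, whereas in Nfe2l2 it began at base 39 of the transcript. The 2 AP-1 matches of Srxn1 began 62 and 5 bases before its start. A match describes letters only and was not read as a bound site.

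The transcripts of this programme were unevenly abundant. Values are given in TPM, a transcript abundance scaled to a common library total, which is corrected for transcript length and keeps no read depth, so that the depth behind each value is unknown. Over the 12 libraries the highest mean levels belonged to the iron stores Fth1 (1556 TPM) and Ftl1 (884 TPM), followed by the peroxiredoxins Prdx2 (692 TPM) and Prdx1 (543 TPM), thioredoxin Txn1 (514 TPM) and the cytosolic superoxide dismutase Sod1 (432 TPM). The lowest belonged to Srxn1 (8.20 TPM), the secreted peroxidase Gpx3 (3.39 TPM), the extracellular dismutase Sod3 (1.47 TPM) and the growth inhibitor Osgin1 (0.937 TPM). The widest ranges among members with a mean above 2 TPM were not in the abundant genes. The highest library exceeded the lowest by 21.8-fold for Srxn1, 6.45-fold for Hmox1 and 4.05-fold for Gclc, compared with 1.72-fold for Fth1 and 1.76-fold for Prdx1.

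Members were tested within fits of all genes. Because the list was chosen with earlier results known, the shares beside all genes describe it and do not test it. Each pair of groups was fitted with limma on log2(TPM + 1), a scale that understates the change of low genes, and calls were made at an unadjusted p under 0.05 or at a false discovery rate (FDR) under 0.05 after Benjamini-Hochberg adjustment over all genes tested. After EV, 3 of 35 members (8.57%) were higher than in IC at an unadjusted p under 0.05, whereas 2.02% of all 12757 genes tested were. These were Hmox1, Srxn1 and Txnrd1. No member was lower, compared with 0.8% of all genes, and 0 members passed the FDR in limma, which 0.102% of all genes did in the higher direction. After the 3–100 kDa proteins, 6 of 34 members (17.6%) were higher, compared with 10.1% of all 12789 genes, and 0 were lower, compared with 6.88%. After the total secretome, 6 of 35 (17.1%) were higher, compared with 9.55% of all 12791 genes, and 0 were lower, compared with 6.67%. The 6 genes were the same in both comparisons, which share the IC libraries: Srxn1, Hmox1, Gclc, Txnrd1, Nfe2l2 and Me1. Of these, Srxn1 and Hmox1 passed the FDR in both, as did 2.82% of all genes in the higher direction after the proteins and 1.68% after the secretome. The median log2 fold change of the members tested was -0.01 after EV, -0.002 after the proteins and 0.02 after the secretome, beside -0.006, -0.02 and -0.01 for all genes.

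**Figure D1:**
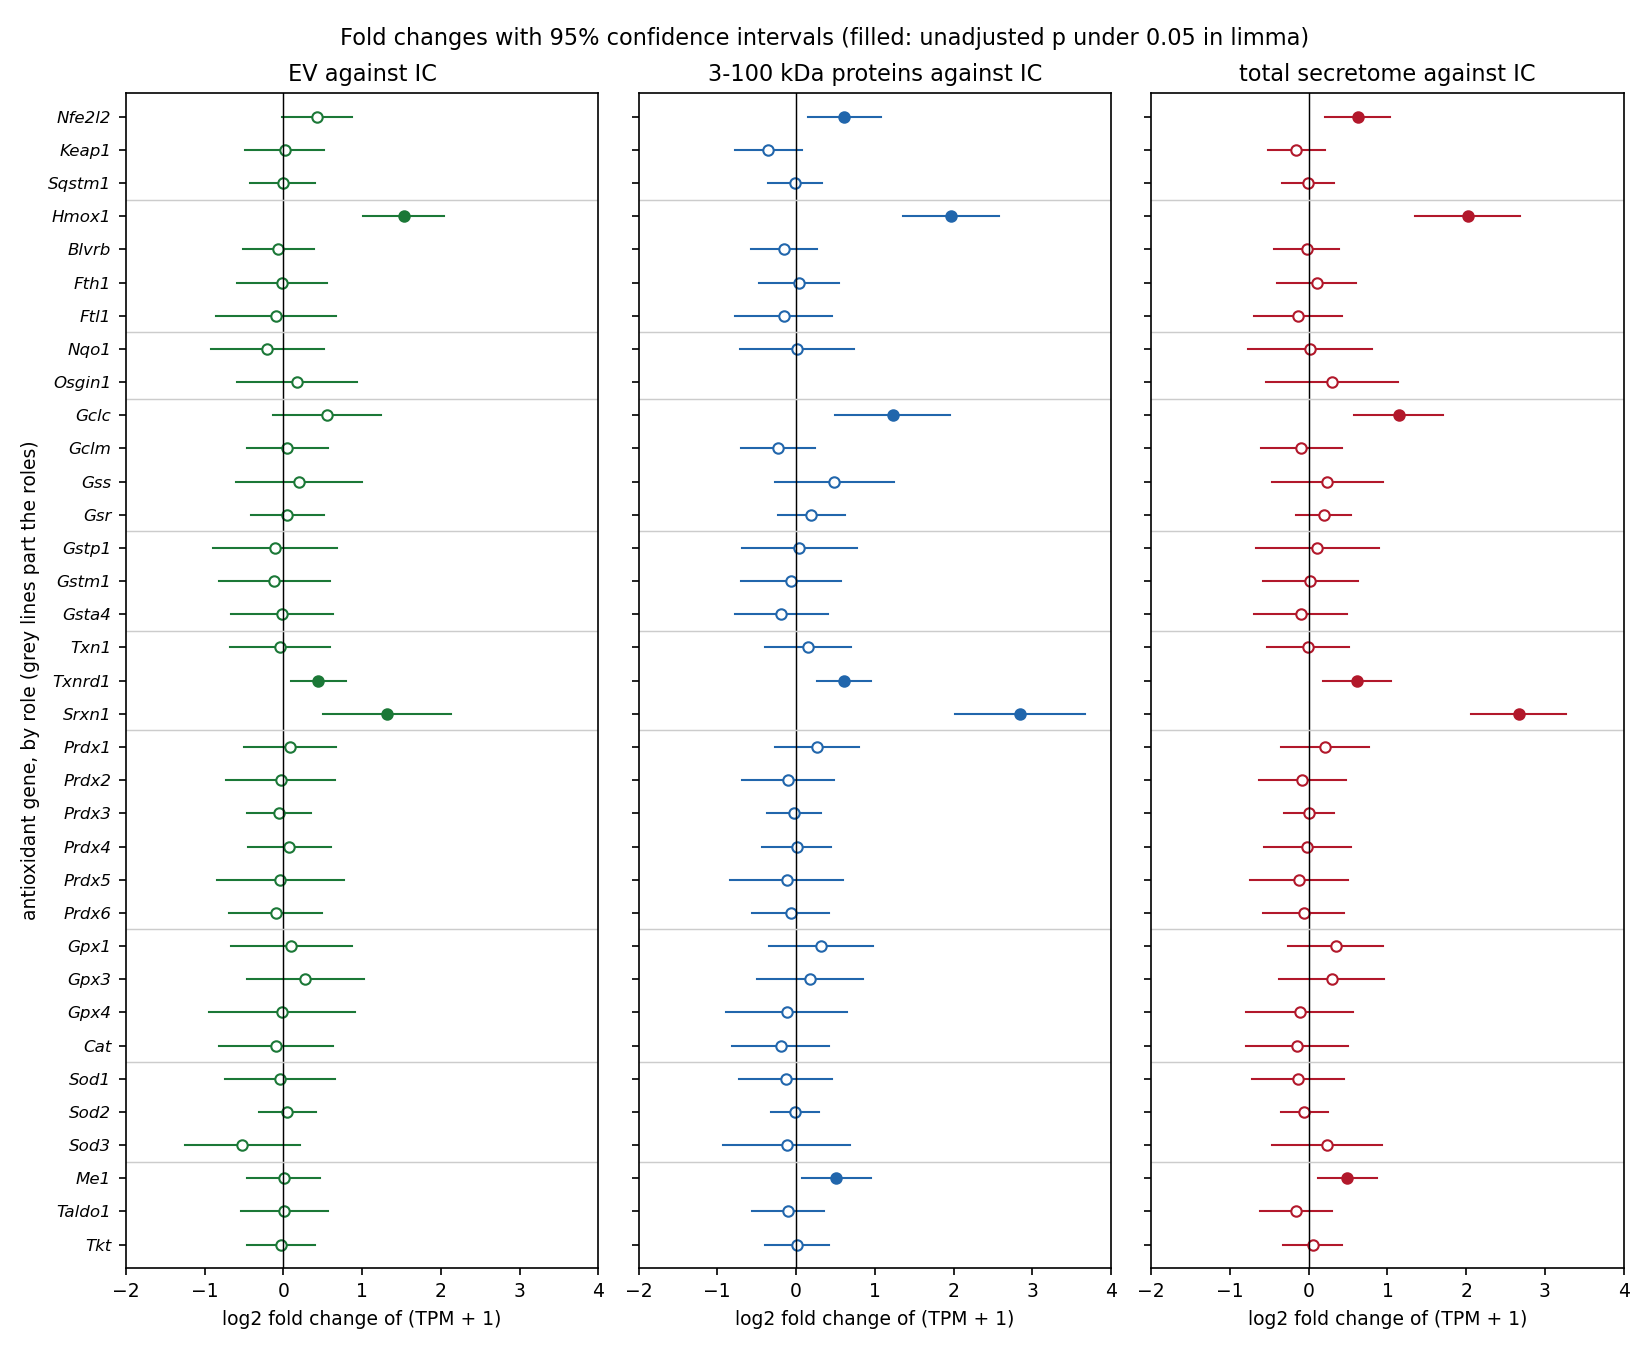
Log2 fold changes of (TPM + 1) against IC, on the horizontal axis, for the 35 antioxidant genes in rows ordered by role, for EV (left), 3–100 kDa proteins (middle) and total secretome (right). Circles are limma estimates and bars their 95% confidence intervals, filled circles have an unadjusted p under 0.05. Hmox1, Srxn1 and Txnrd1 are filled in all 3 panels, Nfe2l2, Gclc and Me1 in the middle and right panels but not the left, and the other rows are open. Osgin1 was not tested in the middle panel.

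Among the regulators, Nfe2l2 itself was low and even in IC. Its levels were 11.9, 11.3 and 11.7 TPM in IC replicates 1 to 3, 13.8, 21.1 and 14.2 TPM after EV, 14.1, 20.4 and 19.8 TPM after the proteins and 15.5, 20.7 and 18.5 TPM after the secretome. Every library of the treated groups lay above every IC library. The log2 fold change was 0.61 (SE 0.198) after the proteins, with an adjusted p of 0.167 in limma, and 0.62 (SE 0.175) after the secretome, with an adjusted p of 0.135. The unadjusted p after the proteins passed 0.05 in 3 of 6 fits that each omitted 1 library, and rose to 0.0510, 0.0576 and 0.0714 without IC replicate 1, proteins replicate 2 or proteins replicate 3. After EV the value was 0.43 (SE 0.19, unadjusted p 0.0578 in limma). Keap1, the sensor that passes NRF2 to degradation, had 20.9, 24.5 and 16.1 TPM in IC, 25.6, 19.3 and 17.6 TPM after EV, 17.2, 13.7 and 15.1 TPM after the proteins and 19.6, 17.6 and 16.2 TPM after the secretome. In the deposited values the proteins group overlapped IC, whereas on the rescaled values that limma tested it lay below every IC library. Keap1 did not pass in any comparison with IC, with a lowest unadjusted p of 0.0916 in limma after the proteins. The autophagy receptor Sqstm1, whose product competes with NRF2 for KEAP1, lay between 266 and 373 TPM and did not pass against IC.

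Hmox1, the inducible heme oxygenase that cleaves heme into biliverdin, iron and carbon monoxide, separated IC from every treated group. It was at 12, 19.9 and 13.8 TPM in IC, at 40.8, 52.2 and 42.9 TPM after EV, at 45.4, 68.6 and 68.6 TPM after the proteins and at 45.1, 77.1 and 70.3 TPM after the secretome. The lowest treated library thus lay at more than 2 times the highest IC library. Group means were 45.3 ± 6.06 TPM (SD, n = 3) after EV, 60.9 ± 13.4 TPM after the proteins and 64.2 ± 16.9 TPM after the secretome, compared with 15.2 ± 4.14 TPM in IC. The ratios of these means were 2.98, 4.00 and 4.22. Hmox1 rose by a log2 fold change of 1.97 (SE 0.261, adjusted p 0.00941 in limma) after the proteins and of 2.02 (SE 0.284, adjusted p 0.0165) after the secretome. The FDR was passed in 4 of 6 omissions after the proteins, with 0.0628 and 0.0607 without proteins replicate 2 or 3, and in 3 of 6 after the secretome, with 0.0722, 0.101 and 0.0998 without IC replicate 1, secretome replicate 2 or secretome replicate 3. After EV the value was 1.53 (SE 0.216) with an unadjusted p of 1.8e-04 and an adjusted p of 0.0749. This adjusted p lay between 0.0431, without IC replicate 2, and 0.555, without EV replicate 2, and was 0.0308 in a fit of all 12 libraries. The other genes of heme and iron in the set, the biliverdin reductase Blvrb and the ferritin chains Fth1 and Ftl1, did not pass against IC, with log2 fold changes between -0.16 and 0.10.

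**Figure D2:**
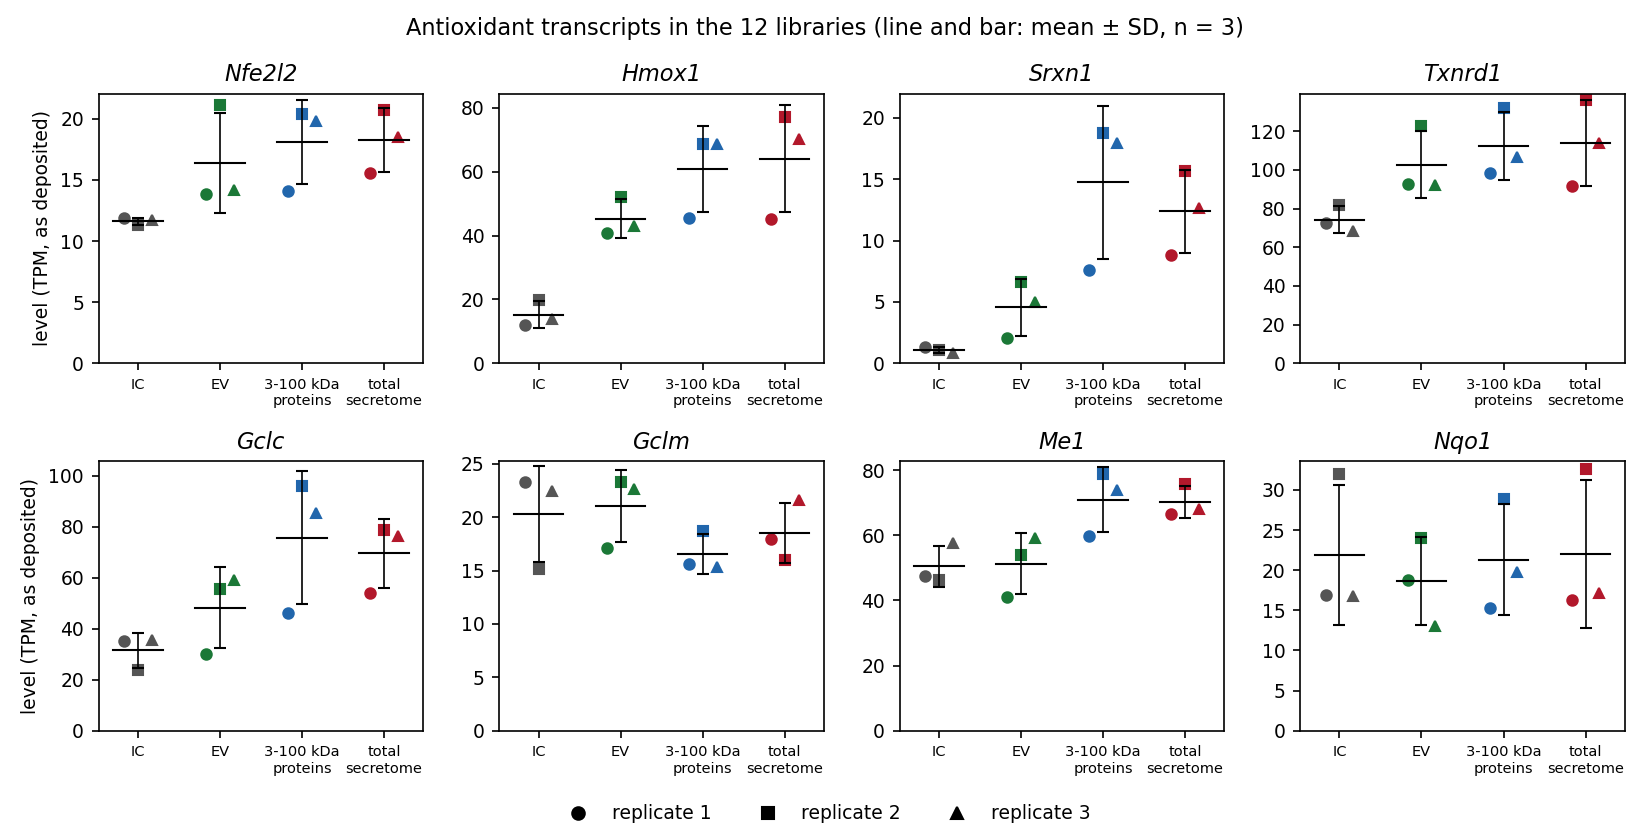
Level in TPM (vertical axis, starting at 0) of 8 antioxidant genes in the 12 libraries, grouped as IC, EV, 3–100 kDa proteins and total secretome on the horizontal axis. Circles, squares and triangles are replicates 1, 2 and 3, and lines with bars are means ± SD (n = 3). Hmox1 and Srxn1 lie above all IC libraries in every treated library, while Gclm and Nqo1 overlap IC in every treated group.

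The thioredoxin branch held the member with the widest range. Srxn1, the sulfiredoxin that repairs overoxidised peroxiredoxins at the expense of ATP, was at 1.34, 1.09 and 0.859 TPM in IC, and after EV it was at 2.07, 6.65 and 5.0 TPM. It reached 7.58, 18.7 and 18.0 TPM after the proteins and 8.82, 15.6 and 12.7 TPM after the secretome. No treated library reached down into IC, and no EV library reached up into the other treatments. Mean levels were 4.18-fold, 13.5-fold and 11.3-fold those of IC after EV, the proteins and the secretome. Srxn1 rose by a log2 fold change of 2.85 (SE 0.353, 95% interval 2.02 to 3.67, adjusted p 0.0075 in limma) after the proteins and of 2.67 (SE 0.257, interval 2.07 to 3.26, adjusted p 0.00467) after the secretome. The FDR was passed in all 6 omissions after the secretome and in 5 of 6 after the proteins, where the adjusted p was 0.0548 without proteins replicate 2. After EV the value was 1.31 (SE 0.345, interval 0.50 to 2.12) with an unadjusted p of 0.0063, and it missed the FDR with an adjusted p of 0.707.

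Txnrd1, the cytosolic thioredoxin reductase, a selenoprotein that returns thioredoxin to its reduced form with NADPH, was more abundant. Its levels were 72.7, 82.0 and 68.3 TPM in IC, 92.9, 122.7 and 92.5 TPM after EV, 98.5, 132 and 107 TPM after the proteins and 91.9, 136 and 114 TPM after the secretome. The lowest treated library, at 91.9 TPM, lay above the highest IC library. The log2 fold change was 0.44 (SE 0.148, adjusted p 1.0 in limma) after EV, 0.61 (SE 0.146, adjusted p 0.0762) after the proteins and 0.61 (SE 0.184, adjusted p 0.158) after the secretome. After EV the unadjusted p of 0.0194 rose to 0.0785, 0.0573 and 0.0815 without IC replicate 1, IC replicate 3 or EV replicate 2. The substrate of the enzyme, thioredoxin Txn1, did not pass against IC, with log2 fold changes of -0.04, 0.15 and -0.01.

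In glutathione synthesis, Gclc passed against IC after 2 of the 3 treatments and Gclm after none. Gclc, the catalytic subunit of glutamate-cysteine ligase, was at 35.1, 23.7 and 35.7 TPM in IC, and after EV it was at 30.0, 55.5 and 59.2 TPM, so that EV replicate 1 lay within IC. It was at 46.2, 95.8 and 85.1 TPM after the proteins and at 53.9, 78.6 and 76.2 TPM after the secretome, all above IC. Its log2 fold change was 1.23 (SE 0.312, unadjusted p 0.0050, adjusted p 0.0913 in limma) after the proteins and 1.14 (SE 0.243, unadjusted p 0.0018, adjusted p 0.0665) after the secretome. The unadjusted p stayed under 0.05 in 6 of 6 omissions in both. The adjusted p after the proteins passed 0.05 in the fit of all 12 libraries (0.0486) and without proteins replicate 1 (0.0255), and reached 0.340 without proteins replicate 3. After the secretome it passed on TPM without rescaling (0.0405) and reached 0.297 without secretome replicate 2. After EV the value was 0.55 (SE 0.292, unadjusted p 0.0983), and 0.84 with an unadjusted p of 0.0088 without EV replicate 1. Gclm, the modifier subunit that lowers the feedback inhibition of the enzyme by glutathione, was at 23.3, 15.1 and 22.4 TPM in IC, 17.1, 23.3 and 22.6 TPM after EV, 15.6, 18.7 and 15.3 TPM after the proteins and 17.9, 16 and 21.6 TPM after the secretome. These ranges overlapped. The log2 fold changes of Gclm were 0.05 (95% interval -0.46 to 0.57), -0.23 (-0.70 to 0.23) and -0.09 (-0.61 to 0.42), none of which passed. Without IC replicate 2 the value after the proteins was -0.42, with an unadjusted p of 0.0259 in limma.

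The ratio of Gclc to Gclm within a library, chosen after the levels had been seen, was higher in all treated libraries than in IC. It was 1.51, 1.56 and 1.59 in IC, 1.75, 2.38 and 2.61 after EV, 2.95, 5.12 and 5.56 after the proteins and 3.01, 4.90 and 3.53 after the secretome. The two-sided exact permutation p was 0.1 for each of the 3 comparisons, the smallest that 3 against 3 libraries can give, and 0.18 after adjustment over 9 tests of 3 ratios. The ratio of Nfe2l2 to Keap1 was 0.569, 0.461 and 0.728 in IC, 0.541, 1.10 and 0.806 after EV, 0.823, 1.49 and 1.31 after the proteins and 0.793, 1.17 and 1.15 after the secretome. Its exact permutation p was 0.3 after EV and 0.1 after each of the other treatments. For the ratio of Txnrd1 to Txn1 it was 0.2 in each comparison.

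**Figure D3:**
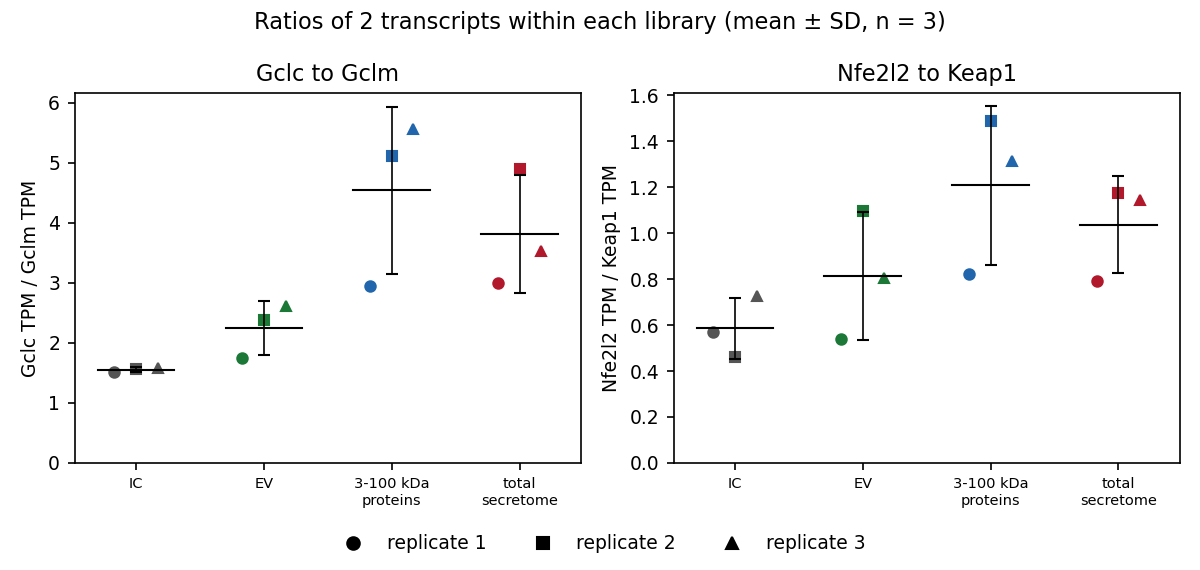
Ratio of Gclc TPM to Gclm TPM (left) and of Nfe2l2 TPM to Keap1 TPM (right), vertical axes starting at 0, in each library of the 4 groups. Symbols mark replicates 1 to 3 and lines with bars the mean ± SD (n = 3). The 3 IC values of the left panel lie between 1.51 and 1.59, below all 9 treated libraries.

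The later steps of glutathione metabolism did not pass against IC. Gss, which completes glutathione, had log2 fold changes of 0.20, 0.48 and 0.23, and Gsr, which recycles oxidised glutathione, had 0.05, 0.20 and 0.19. Cystine enters cells through Slc7a11, the transporter that limits glutathione synthesis and is a known NRF2 target outside the list. Its levels were 10.9, 13.9 and 16.8 TPM in IC, 4.53, 31.0 and 21.8 TPM after EV, 6.52, 30.4 and 18.5 TPM after the proteins and 8.11, 22.9 and 18.6 TPM after the secretome. In each treated group replicate 1 lay below IC and replicates 2 and 3 above it. Its log2 fold changes of 0.11, 0.21 and 0.16 did not pass, and their 95% intervals reached from -1.32 to 1.53, from -0.95 to 1.37 and from -0.77 to 1.09.

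Replicate 1 was often the lowest among the genes that passed against IC. In each treated group the lowest library of Nfe2l2, Hmox1, Gclc, Srxn1 and Me1 was replicate 1, as it was for Txnrd1 after the proteins and the secretome. The article names a day covariate that was removed for a plot of IC and EV, but no source used here gives the day of each library or says what a replicate number marks.

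Me1, the cytosolic malic enzyme that yields NADPH for both thioredoxin and glutathione reductases, passed after the proteins and the secretome but not after EV. It was at 47.4, 46.2 and 57.7 TPM in IC, and after EV it was at 41.0, 53.9 and 59.0 TPM, with a log2 fold change of 0.01 (95% interval -0.46 to 0.47). It was at 59.8, 78.9 and 74.0 TPM after the proteins and at 66.6, 75.7 and 68.1 TPM after the secretome, in both cases above all IC libraries as deposited. On the rescaled values that limma tested, the proteins group overlapped IC and the secretome group did not. The log2 fold change was 0.51 (SE 0.186, adjusted p 0.215 in limma) after the proteins and 0.49 (SE 0.161, adjusted p 0.192) after the secretome. The unadjusted p of 0.0274 after the proteins passed 0.05 in 2 of 6 omissions and was 0.0940, 0.0584, 0.0799 and 0.0998 without IC replicate 1, IC replicate 2, proteins replicate 2 or proteins replicate 3. That of 0.0174 after the secretome passed in 3 of 6 and was 0.0678, 0.0626 and 0.0592 without IC replicate 1, secretome replicate 2 or secretome replicate 3. Taldo1 and Tkt, which rearrange sugars in the pentose phosphate pathway, did not pass against IC, with log2 fold changes between -0.16 and 0.05.

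Nqo1, the quinone reductase often used as a readout of NRF2, did not pass in any comparison. Its levels were 16.9, 31.9 and 16.8 TPM in IC, 18.8, 24.0 and 13.1 TPM after EV, 15.3, 28.9 and 19.8 TPM after the proteins and 16.2, 32.6 and 17.2 TPM after the secretome. In every group replicate 2 was the highest, and the 4 groups overlapped. The log2 fold changes were -0.20 (95% interval -0.92 to 0.51), 0.01 (-0.72 to 0.74) and 0.02 (-0.77 to 0.81), and the interval after each treatment excluded a 2-fold rise on this scale. The value after the proteins turned to -0.02 on TPM as deposited. Osgin1 was at or below 1.53 TPM in every library.

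The enzymes that remove peroxides and superoxide did not pass against IC. None of the 6 peroxiredoxins did, with log2 fold changes between -0.12 and 0.27 in the 3 comparisons, nor did the glutathione peroxidases Gpx1, Gpx3 and Gpx4 and the peroxisomal catalase Cat, with values between -0.19 and 0.35. Among the superoxide dismutases, Sod1 of the cytosol and Sod2 of mitochondria stayed between -0.13 and 0.05, and Sod3 had -0.52, -0.12 and 0.23. The transferases Gstp1, Gstm1 and Gsta4, which couple glutathione to electrophiles, stayed between -0.18 and 0.11. In all, 32, 28 and 29 members did not pass after EV, the proteins and the secretome. For 29, 27 and 28 of these, the 95% interval lay within -1 and 1 on the log2 scale, so that larger changes were excluded by the interval of each but smaller ones were not.

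These counts depended on IC replicate 2. That library was the highest of the 12 for 18 of 35 members, among them Fth1, Ftl1, Prdx1, Prdx2, Txn1 and Sod1, and IC replicate 3 was the lowest for 21. Over the 13270 genes that reached 1 TPM in 3 or more of the 12 libraries, the corresponding shares were 18.1% and 16.8%. The members summed to 0.955% of all TPM in IC replicate 2, 0.623% in IC replicate 1 and 0.527% in IC replicate 3, and to between 0.577% and 0.816% in the treated libraries. Without IC replicate 2, 3 of 34 members were higher and 0 lower after EV in limma, compared with 2.52% and 0.635% of all 12597 genes. After the proteins 10 of 34 were higher and 2 lower, compared with 12.3% and 8.78% of all genes, and after the secretome 14 of 34 were higher and 1 lower, compared with 15.0% and 12.9%. The members that then passed in both were the 5 genes Hmox1, Srxn1, Gclc, Txnrd1 and Nfe2l2, as well as Gpx1, Prdx1, Gstp1, Gss and, lower, Cat. For example, Prdx1 had a log2 fold change of 0.52 (adjusted p 0.0642 in limma) after the proteins and Gpx1 one of 0.63 (adjusted p 0.062) after the secretome. The other lower member after the proteins was Gclm, at -0.42 (adjusted p 0.174). Only Srxn1 and Hmox1 passed the FDR in these fits, and Hmox1 did so after EV as well, with a log2 fold change of 1.72 and an adjusted p of 0.0431.

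**Figure D4:**
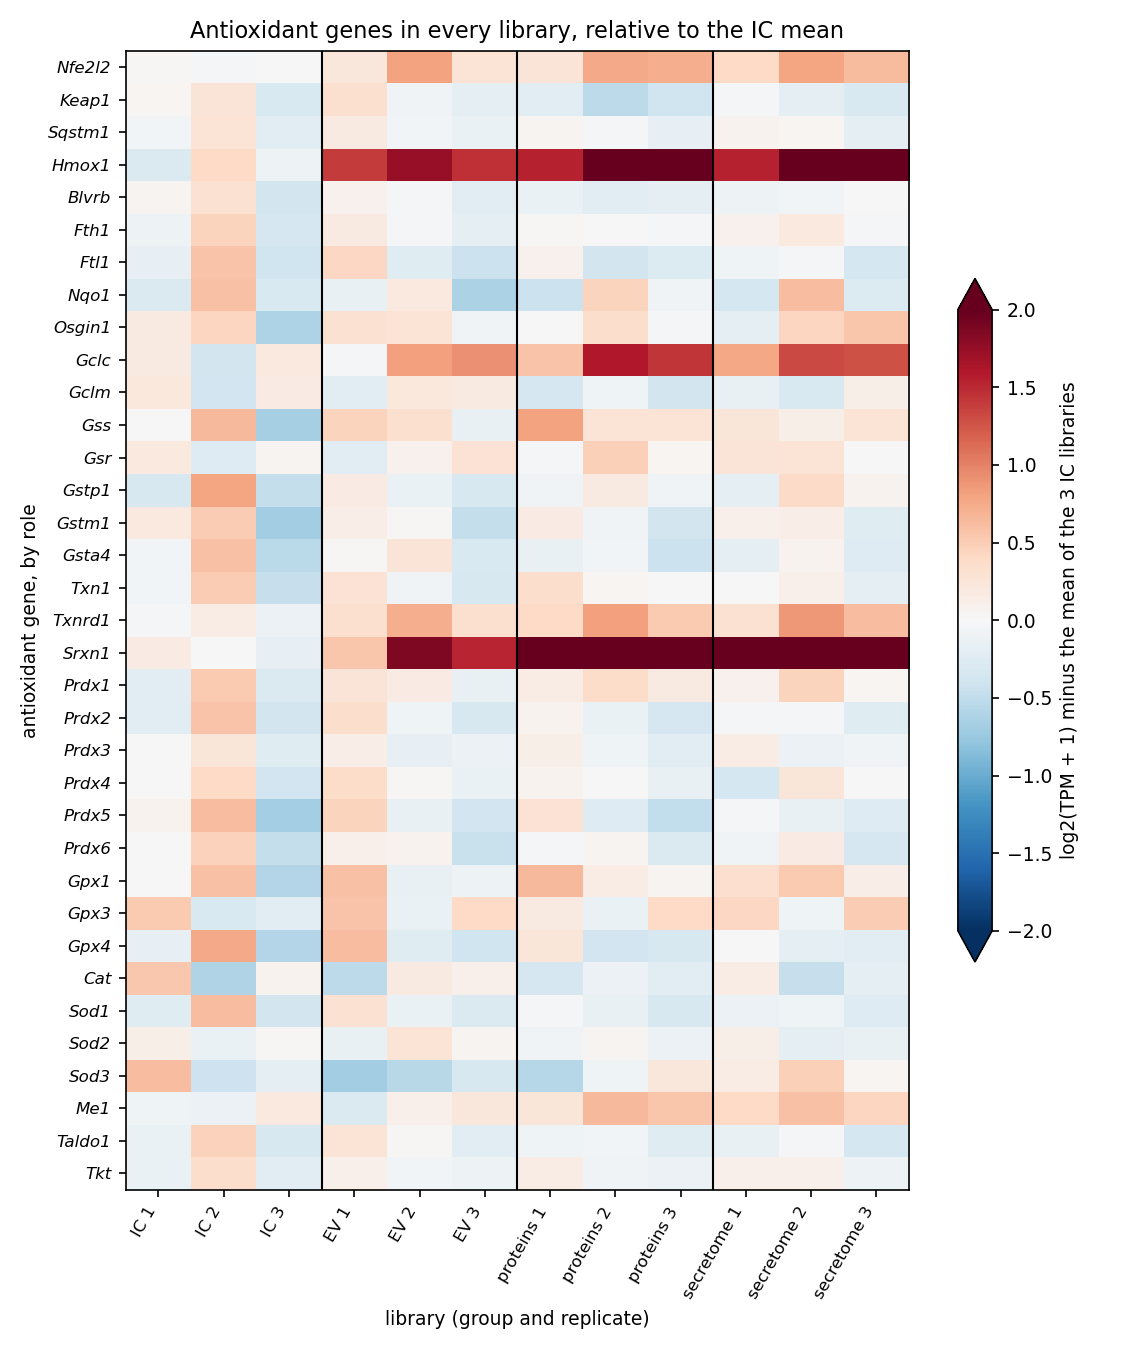
Difference of log2(TPM + 1) from the mean of the 3 IC libraries (colour, from -2 in blue to 2 in red) for the 35 antioxidant genes in rows by role and the 12 libraries in columns by group and replicate. Hmox1 and Srxn1 are red in every treated library and Gclc in 8 of 9, while the column of IC replicate 2 is red and that of IC replicate 3 blue for most of the abundant enzymes.

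Between treatments the clearest difference was in Srxn1, which was lower after EV than after the proteins, with a log2 fold change of -1.53 (SE 0.445, 95% interval -2.58 to -0.48, unadjusted p 0.0106, adjusted p 0.310 in limma). At an unadjusted p under 0.05, 2 of 35 members (5.71%), Srxn1 and Me1, were lower after EV than after the proteins, compared with 5.79% of all 12738 genes. No member was higher, compared with 3.56%, and 0 members passed the FDR in limma, which 0.534% of all genes did. Me1 had a log2 fold change of -0.49 (adjusted p 0.452), and its unadjusted p passed in 2 of 6 omissions, with 0.0722, 0.0722, 0.0921 and 0.116 without EV replicate 1, EV replicate 2, proteins replicate 2 or proteins replicate 3. Same-numbered libraries of these groups deviated together, so the replicate number was also fitted as a block. With it 6 members passed the unadjusted threshold, 4 lower and 2 higher after EV, and 3 passed the FDR. Under the block 11.3% of all genes were lower and 9.82% higher, and 2.66% passed the FDR, so that the share of members at the unadjusted threshold (17.1%) was below that of all genes (21.1%). The 3 members at the FDR were Srxn1 (adjusted p 0.0110), Gclc (log2 fold change -0.66, adjusted p 0.0252) and Me1 (adjusted p 0.0409). Gclc was lower after EV in each of the 3 same-numbered pairs. Hmox1 had -0.43 (adjusted p 0.169), Keap1 0.38 (adjusted p 0.186) and Gclm 0.29 (adjusted p 0.201) under the block.

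Against the secretome, 3 of 35 members (8.57%) were lower after EV at an unadjusted p under 0.05, compared with 4.31% of all 12760 genes, and 0 were higher, compared with 3.39%. No member passed the FDR in limma, as 0.188% of all genes did. Srxn1 had a log2 fold change of -1.34 (SE 0.364, adjusted p 0.376) and Me1 of -0.47 (adjusted p 0.545). The unadjusted p of Me1 passed in 3 of 6 omissions, with 0.0502, 0.0736 and 0.0697 without EV replicate 2, secretome replicate 2 or secretome replicate 3. Sod3, the dismutase that is secreted into the matrix, was at 2.93, 0.924 and 1.26 TPM in IC, 0.597, 0.743 and 1.06 TPM after EV, 0.727, 1.42 and 2.0 TPM after the proteins and 1.84, 2.57 and 1.64 TPM after the secretome. EV and secretome libraries did not overlap. Only 1 EV library reached 1 TPM, the level of the filter, so that Sod3 was tested because of its level after the secretome, and its log2 fold change of -0.75 is a description with no p. Without Sod3, 2 of 34 members (5.88%) were lower. With the replicate block 5 of 35 members (14.3%, and 4 of 34 without Sod3) were lower and 0 higher, compared with 5.56% and 4.47% of all genes, the others being Gclc (log2 fold change -0.57, adjusted p 0.238) and Hmox1 (-0.48, adjusted p 0.457), and Srxn1 came to an adjusted p of 0.0851. Between the proteins and the secretome no member passed. In that comparison 0 of 35 members were higher and 0 lower at an unadjusted p under 0.05 in limma, compared with 1.24% and 1.4% of all 12718 genes, and 0 passed the FDR, as 0.0157% of all genes did. With the replicate block 0 members passed either threshold in limma, while the share of all genes at the unadjusted threshold moved from 2.64% to 5.26%. The log2 fold change of Srxn1 was -0.18 with a 95% interval from -1.04 to 0.69, which leaves room for a 2-fold difference, while that of Me1 was -0.01 with an interval from -0.34 to 0.32.

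Other genes of the pathway were read from a list of 98, of which 91 had a row and Gsta3, Mgst2 and Gpx2 were listed at 0 in all libraries. After EV, 2 of 80 tested were higher and 1 lower at an unadjusted p under 0.05. After the proteins, 7 of 82 were higher and 5 lower, and after the secretome 6 of 81 were higher and 3 lower. These are 2.5%, 8.54% and 7.41% higher, near the shares of all genes given above. The counts include Maff and Msrb3, whose IC libraries were all under 1 TPM, the level of the filter, so that they were tested only because they were high after treatment, and no p is given for them. Without these genes 1 of 79, 5 of 80 and 4 of 79 were higher. An FDR under 0.05 was then reached by 0, 3 and 2 genes in limma, compared with 0.141%, 3.31% and 1.97% of all genes in either direction. Of these, Mt2A, Rpia and Sesn1 after the proteins and Mt2A and Sesn1 after the secretome, each passed the FDR in at most 1 of 6 omissions, that of IC replicate 2. With the replicate number as a block, 7 of 79 were higher after the secretome, the carbonyl reductase Cbr3, Slc3a2, the heavy chain of the cystine transporter, and Rpia being added, and 3 passed the FDR, Txnip being added, compared with 10.7% and 1.94% of all genes. The small MAF gene Maff, whose product pairs with NRF2 or with its repressors, was at 0.286, 0.232 and 0.829 TPM in IC, 2.36, 1.63 and 2.94 TPM after EV, 4.99, 5.89 and 9.17 TPM after the proteins and 3.50, 5.52 and 8.35 TPM after the secretome. Its log2 fold change was 1.19 after EV, 2.40 after the proteins and 2.20 after the secretome, given as a description. The groups lay in the order IC, EV and then the other treatments without overlap of IC and EV or of EV and the rest. The related Mafg and Mafk did not pass against IC. Bach1 and Bach2, repressors that occupy the same elements, were higher at an unadjusted p under 0.05 after the proteins (log2 fold changes of 0.73 and 0.84, adjusted p 0.274 and 0.196) and after the secretome (0.62 and 0.69, adjusted p 0.25 and 0.283).

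The metallothionein Mt2A, which binds zinc and copper and scavenges radicals, was at 237, 306 and 165 TPM in IC, 599, 379 and 340 TPM after EV, 624, 502 and 537 TPM after the proteins and 524, 485 and 471 TPM after the secretome. All 9 treated libraries lay above IC. Mt2A rose by a log2 fold change of 1.30 (adjusted p 0.0229 in limma) after the proteins and of 1.12 (adjusted p 0.0346) after the secretome, and had 0.88 (unadjusted p 0.0173, adjusted p 1.0) after EV. Its adjusted p reached 0.134 without proteins replicate 3 and 0.191 without secretome replicate 3. In other settings it passed the FDR in 5 of 6 after each of these treatments. The exceptions were 0.0849 under the replicate block after the proteins and 0.0604 without the filter after the secretome. Mt1 had 1.58 (adjusted p 0.147) and 1.65 (adjusted p 0.239) after the proteins and the secretome. Msrb3, which repairs oxidised methionine, lay between 0.461 and 0.922 TPM in IC, 0.779 and 1.59 TPM after EV, 2.03 and 3.26 TPM after the proteins and 2.27 and 2.78 TPM after the secretome. Rpia of the pentose phosphate pathway rose after the proteins, by 0.74 (adjusted p 0.0411 in limma), and its adjusted p reached 0.245 without proteins replicate 3. It passed the FDR in 3 of 6 other settings and had an adjusted p of 0.147 with the replicate block.

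Among the lower genes, Sesn1, a stress-induced sestrin, was at 17.1, 17.6 and 17.5 TPM in IC, 13.3, 15.7 and 11.8 TPM after EV, 10.5, 8.58 and 9.07 TPM after the proteins and 9.74, 8.78 and 8.67 TPM after the secretome. It fell by 0.80 on the log2 scale (adjusted p 0.0458 in limma) after the proteins and fell by 0.85 (adjusted p 0.0283) after the secretome. Its adjusted p reached 0.220 without proteins replicate 2 and 0.183 without secretome replicate 2. In other settings it passed the FDR in 3 of 6 after the proteins, with 0.151 under the replicate block, and in 6 of 6 after the secretome. Txnip, which binds and inhibits thioredoxin and restrains glucose uptake, was at 52.3, 33.8 and 21.5 TPM in IC, 34.3, 29.7 and 18.7 TPM after EV, 23.9, 13.5 and 7.90 TPM after the proteins and 20.2, 11.4 and 6.92 TPM after the secretome. In every group replicate 1 was the highest and replicate 3 the lowest. The log2 fold change was -1.21 (adjusted p 0.158) after the proteins and -1.42 (adjusted p 0.108) after the secretome. With the replicate number as a block the adjusted p in limma was 0.0388 after the proteins and 0.00721 after the secretome. The glutaredoxin Glrx had -0.35 and -0.38 (adjusted p 0.164 and 0.135). After EV the gene that was lower was the transferase Gstt2, at -0.59 (unadjusted p 0.0443, adjusted p 1.0).

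**Figure D5:**
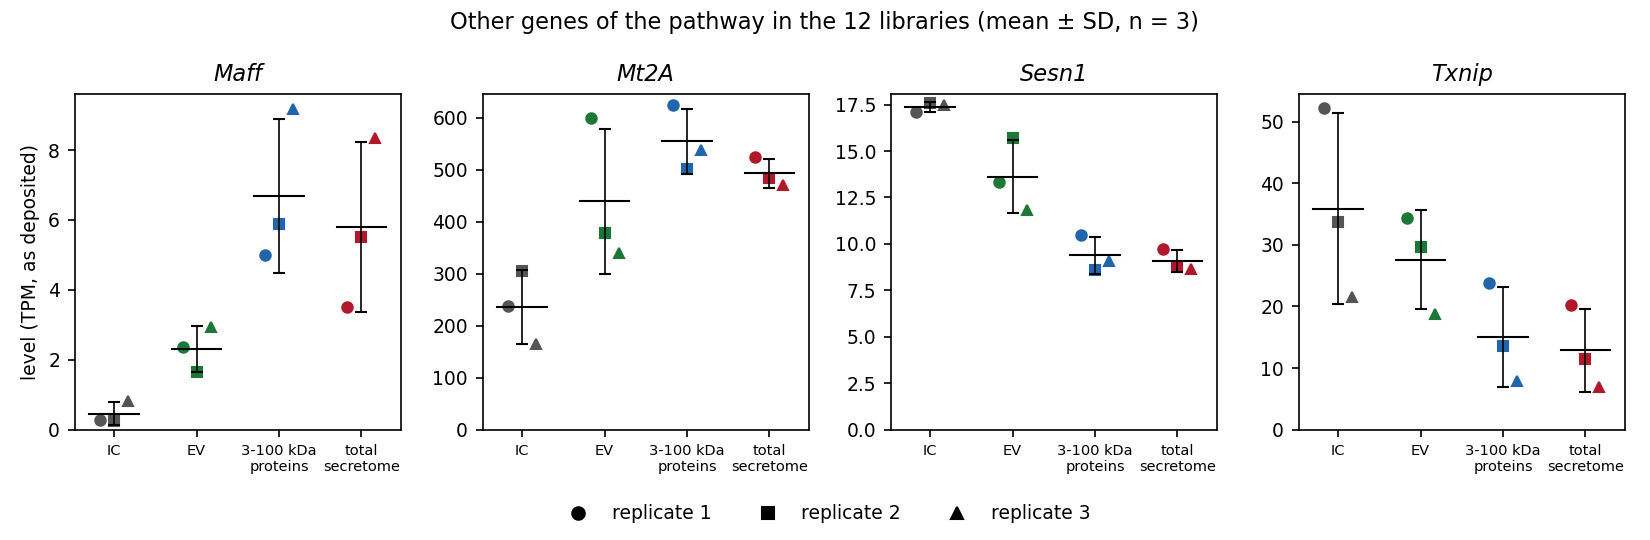
Level in TPM (vertical axis, starting at 0) of Maff, Mt2A, Sesn1 and Txnip in the 12 libraries by group, with symbols for replicates 1 to 3 and lines with bars for the mean ± SD (n = 3). Maff and Mt2A are above, and Sesn1 below, all IC libraries in every treated library, whereas Txnip overlaps IC after EV and after the proteins.

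Cell type markers were read beside these genes, because in bulk RNA fewer cells of a type and less RNA per cell cannot be told apart. The 7 astrocyte markers summed to between 801 and 1074 TPM in IC, 1091 and 1467 TPM after EV, 913 and 1380 TPM after the proteins and 1088 and 1520 TPM after the secretome. The astrocyte marker Gfap was at 85.1, 361 and 128 TPM in IC, 491, 617 and 362 TPM after EV, 242, 447 and 310 TPM after the proteins and 271, 636 and 408 TPM after the secretome. Of the 7, Gfap was higher after EV (log2 fold change 1.58, unadjusted p 0.0161, adjusted p 1.0 in limma) and after the secretome (1.40, unadjusted p 0.0363, adjusted p 0.269), while after the proteins it had 1.05 (unadjusted p 0.0754) and 0 of 7 passed. The 7 neuronal markers summed to between 2339 and 2443 TPM in IC, 2233 and 2498 TPM after EV, 1919 and 2239 TPM after the proteins and 1862 and 2324 TPM after the secretome, so that all libraries of the proteins and the secretome lay below IC. Tubb3, the most abundant of the 7, weighed most in these sums. Its mean was 1416.5 TPM in IC, 1159.4 TPM after the proteins and 1151 TPM after the secretome. Singly, each of the 7 overlapped IC after both treatments in the deposited values. None of the 7 passed singly in a comparison with IC in limma, at an unadjusted p under 0.05. The 8 markers of the oligodendrocyte lineage summed to between 183 and 236 TPM in IC, 193 and 232 TPM after EV, 124 and 189 TPM after the proteins and 238 and 265 TPM after the secretome. At an unadjusted p under 0.05 in limma, Olig1 (log2 fold change -0.59, p 0.0232) and Sox10 (-0.79, p 0.0303) were lower after the proteins, Olig2 was higher after the secretome (0.53, p 0.00372), and 0 of 7 tested passed after EV. The 6 markers of mural cells and fibroblasts summed to between 2.05 and 4.28 TPM in any library. Among these, Pdgfrb was lower after EV (-0.90, unadjusted p 0.0070, adjusted p 0.741 in limma) and the secretome (-0.92, unadjusted p 0.0034, adjusted p 0.0913). After the proteins Pdgfrb was under 1 TPM in every library, and Col1a1 was so in IC, so that each was tested there through 1 group alone and only levels are given. Pdgfrb was at 3.18, 4.01 and 2.45 TPM in IC and 0.481, 0.852 and 0.321 TPM after the proteins, and Col1a1 at 0.360, 0.0365 and 0.261 TPM in IC and 1.29, 1.64 and 1.81 TPM after the proteins. The 7 microglial markers summed to at most 2.20 TPM, the 4 of 5 endothelial markers with a row to at most 0.758 TPM and the 2 of 4 red blood cell markers with a row, Hbb and Alas2, to at most 1.34 TPM in any library. Pecam1, Hba-a1 and Hba-a2 were not analysed here. The part of the neuronal, astrocyte, oligodendrocyte and mural cell shares in the antioxidant changes was not tested.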

How the data were processed

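The 12 libraries were prepared from total RNA. For the library, the labels give a strand-specific mRNA kit and a DNBSEQ instrument and the article gives poly(A) selection, a different kit and a NextSeq instrument, which the values cannot settle. The article describes quality control in FastQC, trimming in Trimmomatic and Cutadapt, quantification in Salmon with rat transcripts and a genome decoy (Rnor_6.0 in the submitters' processing notes) and a summary by gene in tximport. No source names the unit of the files. The values sum to 1000000 in each library and were taken as TPM deposited by the authors without further scaling. TPM keeps no depth, so that depth is unknown and no counting interval was computed.

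Rows of one gene name were summed, although each member had 1 row. Within each pair of groups TPM was rescaled by median-of-ratios factors, genes that reached 1 TPM in 3 or more of the 6 libraries were kept, and log2(TPM + 1) was fitted with limma 3.58.1 under R 4.3.3 (lmFit, then eBayes with its trend option), and p-values were adjusted by Benjamini-Hochberg over all genes tested. Levels are deposited TPM. Other settings were a pseudocount of 0.1 TPM, no filter on low values, no rescaling, no trend, a fit of all 12 libraries, a replicate block and the omission of each library. Ratios were compared by exact permutation tests of log2 values, two-sided, in scipy 1.17.1, which cannot give less than 0.1. The fits were tested on simulated data.

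The labels number the libraries 1 to 3. Across genes, the departures of libraries from the mean of their group correlated between libraries of the same number by 0.247, 0.161 and 0.158 for secretome and IC, 0.590, 0.288 and 0.303 for EV and proteins, 0.263, 0.186 and 0.211 for EV and secretome, and 0.380, 0.215 and 0.242 for secretome and proteins. In these 4 comparisons the numbers were taken to pair the libraries, from the data and not from a stated design, whereas for EV and IC or proteins and IC they were not. Because EV, proteins and IC were each taken as paired with the secretome, pairing of EV or proteins with IC was neither shown nor excluded. All calls come from fits without the block, and for paired groups blocked values stand beside the reported ones where the block changed a call or a count of them.

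The members and the lists of other genes were chosen with earlier results of these data known. Library values are given for every member with an unadjusted p under 0.05 against IC and for Nfe2l2, Keap1, Hmox1, Nqo1, Gclc, Gclm, Srxn1, Txnrd1, Slc7a11 and Gfap, and Sod3 was added after its values were seen. Of the other pathway genes, at most 8 per comparison with IC were named, lowest p first, and of these only genes with an unadjusted p under 0.05. Bach2, and Bach1 after the proteins, fell outside the first 8 and were added with Maff after their values were seen. Mafg and Mafk were added with Maff. Promoter windows shown were those of members with an unadjusted p under 0.05 after EV or with the core motif, lowest p first, at most 4. The 4th, Prdx4, is not printed because its stretch of 41 bases lies wholly after the start and transcribed sequence was kept shorter than that, as for Nfe2l2, whose match also lies after the start and whose stretch is 28 bases. Companion genes with no row (7) were not analysed here.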

Additional observations from a re-analysis of the deposited data

How the results depend on the processing

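For 34 log2 fold changes (10 named genes against IC, with Srxn1, Me1 and Sod3 also between treatments), 203 of 204 values under another pseudocount, filter, scaling, variance model, fit of all 12 libraries or replicate block kept their direction and their side of an unadjusted p of 0.05, the exception being Nqo1 after the proteins, at -0.01877 without rescaling. The cause was not tested. The 34 include Sod3 between EV and secretome, which was tested because of its level after the secretome. Its 6 values here and its 6 omissions below are a description only. Outside these 34, Gclc, Hmox1, Keap1 and Gclm between EV and proteins, and Gclc and Hmox1 between EV and secretome, passed the unadjusted threshold under the replicate block alone among these settings. With single libraries left out, 155 of 204 kept both, 21 lost the threshold, 6 passed it and 22 changed sign. The sign changes were in values that had not passed. For EV against IC, Keap1 ranged from -0.151 to 0.142, Nqo1 from -0.392 to 0.0823, Gclm from -0.143 to 0.182 and Slc7a11 from -0.363 to 0.852. For proteins against IC, Nqo1 ranged from -0.184 to 0.300 and Slc7a11 from -0.210 to 0.810. For secretome against IC, Nqo1 ranged from -0.287 to 0.304, Gclm from -0.290 to 0.0367 and Slc7a11 from -0.114 to 0.628. Hmox1 and Srxn1 kept an unadjusted p under 0.05 in all omissions against IC.

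Counts of members moved more with single libraries. At an unadjusted p under 0.05 the omissions gave between 2 and 5 members for EV against IC (5 without EV replicate 1), 4 and 12 for proteins against IC (12 without IC replicate 2), 5 and 15 for secretome against IC (15 without IC replicate 2), 1 and 5 for EV against proteins, 1 and 7 for EV against secretome (7 without EV replicate 1), and 0 and 1 for secretome against proteins (1, Prdx5, without proteins replicate 1). At an FDR under 0.05 they gave between 0 and 1 for EV against IC (1, Hmox1, without IC replicate 2), 0 and 3 for proteins against IC, and 1 and 2 for secretome against IC. For proteins against IC the count was 0 without proteins replicate 2 and 1 without proteins replicate 3, and for secretome against IC it was 1 without IC replicate 1, secretome replicate 2 or secretome replicate 3. The share of all genes at the unadjusted threshold moved as well. Without EV replicate 1 it went from 2.82% to 4.82% for EV against IC and from 7.7% to 22.0% for EV against secretome. Without IC replicate 2 it went from 17% to 21.1% for proteins against IC and from 16.2% to 27.8% for secretome against IC. For EV against proteins it was 14.1% without EV replicate 1, beside 14.7% of members. For secretome against proteins it was 10.1% without proteins replicate 1, beside 2.86% of members. At the FDR, between 0% and 0.167% of all genes passed for EV against IC over the omissions. The ranges were 0.658% to 3.84% for proteins against IC and 0.246% to 6.41% for secretome against IC. A fit of all 12 libraries gave 1 member (2.86%) at the FDR, Hmox1, for EV against IC, and 3 (8.82%) for proteins against IC, where Gclc came to 0.0486. In that fit 0.463% and 7.33% of all genes passed the FDR. TPM without rescaling gave 3 (8.57%) for secretome against IC, where Gclc came to 0.0405, and 1.775% of all genes passed.

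With the replicate number as a block, EV against proteins had 6 members at an unadjusted p under 0.05 and 3 at the FDR, and EV against secretome had 5 at the unadjusted threshold. The block left the counts of members against IC at 3, 6 and 6, and at 0, 2 and 2 for the FDR. Same-numbered libraries of EV and IC correlated by -0.0816, -0.180 and 0.541, and those of proteins and IC by -0.00674, -0.251 and 0.253. Pairing by number was neither shown nor excluded there. Omitting rescaling turned the sign of 0 to 3 members per comparison and moved the median of the members by at most 0.03 on the log2 scale. The depth of the libraries is unknown, so what it limits could not be stated, and with 3 libraries per group an exact test cannot pass 0.05.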
